A study of Mus musculus with 2 samples.

Results

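Pulmonary surfactant is the film of phospholipid and protein that lowers surface tension at the air-liquid interface, so that alveoli do not collapse once a newborn breathes air. Alveolar type 2 cells make it, pack it into lysosome-related organelles called lamellar bodies and release it by exocytosis. The hydrophobic proteins SP-B and SP-C are made as larger precursors and cut on the way to the lamellar body, while SP-A and SP-D are collectins, secreted lectins that bind microbes.

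The genes described are 10: the surfactant proteins Sftpa1, Sftpb, Sftpc and Sftpd, the precursor-cutting proteases Napsa and Ctsh, and the membrane and lipid genes Abca3, Lamp3, Slc34a2 and Lpcat1. They were chosen by function, by matching gene identifiers to symbols, and all 10 were found among the 43346 mouse genes of the deposited tables. Total RNA was sequenced from the lungs of 2 B6NCrl mouse pups at postnatal day 0, which form a single untreated group with no allele or agent named. Pup 1 and pup 3 came from one pregnancy, both lungs of a pup went into its library, and the labels carry the same donor identifier for both. With 1 group there was no comparison between conditions, and with 2 pups an exact sign-flip test cannot give a 2-sided p under 0.5, so levels and differences are described without p-values.

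Gene counts summed to 42189536 in pup 1 and 37026165 in pup 3. Levels are in TPM, a unit that divides counts by transcript length, rescales each library to one total and can be compared between genes. Of the lists of cell type markers, all 20 other type 2 markers, all 12 type 1 markers, 8 of 9 club cell markers and all 8 ciliated cell, endothelial and fibroblast markers reached TPM 1 in both pups, the level called detected here. That level was reached by 60.3% of 21474 protein-coding genes and by 89.1% of the 15790 genes with enough counts to be tested, so these counts by themselves say little of the tissue. These are whole lungs, so fewer type 2 cells and less RNA per cell cannot be told apart. Red cell markers made up 5.56% of all TPM in pup 1 and 6.66% in pup 3, and that share lowers the TPM of every other gene.

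All 10 genes were expressed at TPM 50 or more in both pups, a level reached by 12.4% of 21474 protein-coding genes. Their joint share of TPM was 8.85% in pup 1 and 7.96% in pup 3, and of counts 5.42% and 4.78%. Sftpc alone made up most of this: the 9 other genes held 1.12% and 1.06% of TPM, so that Sftpc exceeded their sum 6.89-fold in pup 1 and 6.49-fold in pup 3. Summed TPM was 84425 and 75585 for the 4 surfactant protein genes, 2932 and 2719 for the 2 proteases, and 1186 and 1300 for the 4 membrane and lipid genes.

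**Figure D1:**
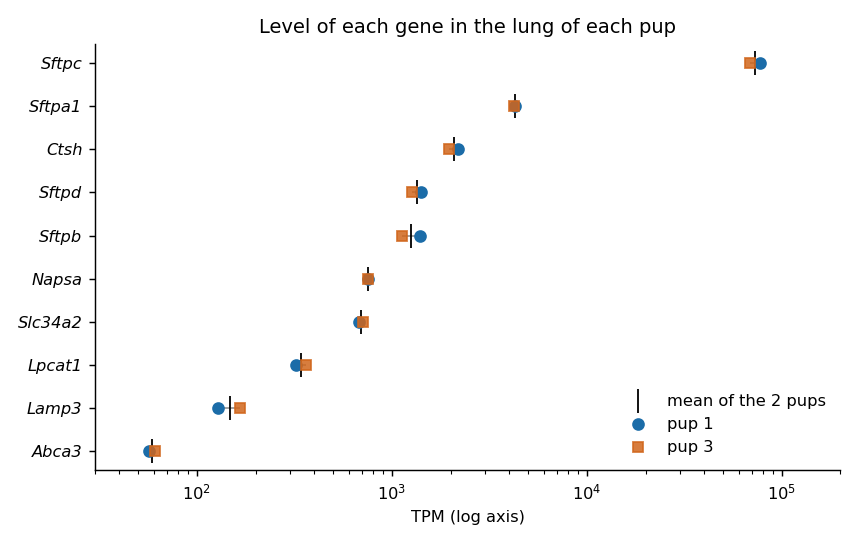
TPM of each gene in pup 1 (circles) and pup 3 (squares) on a log axis, with the mean of both as a vertical tick. The genes span from 58.9 TPM (Abca3) to 73149 TPM (Sftpc), and the ranges of the pups overlap for one neighbouring pair, Sftpd and Sftpb.

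Sftpc encodes SP-C, a small lipopeptide that sits in the phospholipid film, and was the highest of all genes in both libraries. Its level was 77317 TPM in pup 1 and 68981 TPM in pup 3 (mean 73149 ± 5895, SD, n = 2), from 1758935 and 1335282 counts. The gene (ENSMUSG00000022097.3) lies on the minus strand of chromosome 14, 70520949 to 70524081 in mm10, 715 bases from Bmp1 (30.4 and 28.6 TPM), a metalloprotease gene, and 6604 bases from Lgi3 (151 and 139 TPM), a gene used here as another type 2 marker. Its level in TPM was 55.8 times that of Sftpb in pup 1 and 60.9 times in pup 3.

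Sftpa1 encodes SP-A and came second among the 10. It stood at 4304 TPM in pup 1 and 4209 TPM in pup 3 (4256 ± 67.0), ranks 21 and 20 of all genes. Sftpd encodes SP-D, the other surfactant collectin, and stood at 1418 and 1262 TPM (1340 ± 111). Both pups thus had more Sftpa1 than Sftpd, 3.03-fold in pup 1 and 3.34-fold in pup 3. The genes (ENSMUSG00000021789.10 and ENSMUSG00000021795.9) share a stretch of chromosome 14, at 41131782 to 41136452 on the plus strand and 41172214 to 41185149 on the minus strand, 35762 bases apart. Mbl1, a serum mannose-binding collectin, is annotated in that gap and was at 1.20 and 0.71 TPM.

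Sftpb encodes the precursor of SP-B, a saposin-like protein needed both for the surface film and for forming lamellar bodies. It stood at 1386 TPM in pup 1 and 1133 TPM in pup 3 (1260 ± 179), from 61942 and 43242 counts. Its range overlapped that of Sftpd, so the order of these neighbours is not resolved. The gene (ENSMUSG00000056370.11) lies on the plus strand of chromosome 6 at 72304610 to 72314371.

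Ctsh encodes cathepsin H, a cysteine protease that acts on both hydrophobic precursors, and Napsa encodes napsin A, an aspartic protease of the same processing steps. Ctsh stood at 2176 and 1967 TPM in pups 1 and 3 (2071 ± 148), place 3 among the 10. Napsa stood at 756 and 752 TPM (754 ± 2.85), the smallest spread of the 10 relative to its mean (0.378%). Ctsh exceeded Napsa in both pups, 2.88-fold and 2.61-fold. Ctsh (ENSMUSG00000032359.10) lies on the plus strand of chromosome 9 at 90054152 to 90076089, and Napsa (ENSMUSG00000002204.8) on the plus strand of chromosome 7 at 44572380 to 44586862, where an antisense gene, Gm15396, overlaps it in the later annotation and was not in the tables.

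Slc34a2 encodes the sodium-phosphate cotransporter NaPi-IIb, which takes up phosphate at the apical face of type 2 cells. Its level was 680 and 708 TPM (694 ± 20.2). By counts, with no length scaling, Slc34a2 was in place 3 of the 10, at 88191 and 78049 counts over a mean transcript length of 4121 bases in pup 1. The gene (ENSMUSG00000029188.10, chromosome 5, 53038081 to 53071664, plus strand) is overlapped by the antisense Gm17182 (127 and 116 counts). Whether the counting used strand is not given in the sources used here, so reads of such pairs cannot be told apart.

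Lpcat1 encodes the acyltransferase that remodels phosphatidylcholine toward its dipalmitoyl form, the main surface-active lipid. It stood at 322 TPM in pup 1 and 364 TPM in pup 3 (343 ± 29.8; ENSMUSG00000021608.10, chromosome 13, 73467197 to 73516422, plus strand). Lamp3, also called DC-LAMP, is a membrane protein of the lamellar body and of mature dendritic cells. It was at 128 TPM in pup 1 and 167 TPM in pup 3 (147 ± 27.8; ENSMUSG00000041247.7, chromosome 16, 19653378 to 19706375, minus strand), the widest spread of the 10 at 18.9% of the mean. Of the dendritic cell list, 5 of 10 markers were detected and summed TPM over the list was 110 and 119. Fscn1, an actin-bundling protein gene used as a mature dendritic cell marker, made up most of that sum at 60.8 and 71.8 TPM. It was higher in pup 3, but 5 of the 8 markers with enough counts to be tested were higher in pup 1 by scaled counts. The median log2 ratio of those 8, pup 1 over pup 3, was 0.13. Ccr7 and Ccl22, other markers of mature dendritic cells, were at 0.61 and 0.45 TPM and at 0.40 and 0.40 TPM.

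Abca3 encodes the transporter that moves phospholipid into the lamellar body and was the lowest of the 10. It stood at 56.7 and 61.0 TPM (58.9 ± 3.01), ranks 2567 and 2464 of all genes, and Sftpc was 1363-fold and 1131-fold higher. Its counts were not low, at 10686 and 9670, over a mean transcript length of 5936 bases in pup 1. The gene (ENSMUSG00000024130.11, chromosome 17, 24351950 to 24410201, plus strand) is overlapped on the opposite strand by the noncoding D330041H03Rik (1619 and 1429 counts), so its level is uncertain for the reason given for Slc34a2.

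Each gene was then set beside the other genes of its protein family, in TPM. In all, 9 of the 10 were above every gene of their family outside the 10, and Lamp3 was the exception. Slc34a2 exceeded the next phosphate carrier, Slc20a2 (13.6 and 10.8 TPM), 50.1-fold in pup 1 and 65.4-fold in pup 3. Slc20a1, its housekeeping relative, was at 8.76 and 9.28 TPM. Slc34a1 and Slc34a3, the renal members of the Slc34 family, were at 0.01 and 0 TPM and at 0 and 0 TPM.

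Among the collectins and ficolins, Colec12, a scavenger receptor, came next at 58.8 and 68.8 TPM, 73.2-fold and 61.2-fold below Sftpa1 and 24.1-fold and 18.3-fold below Sftpd. Fcnb, Colec10 and Mbl2 were under TPM 1 in both pups. Of genes with the BRICHOS domain, a chaperone-like fold that the SP-C precursor carries, Itm2b was second at 1413 and 1356 TPM, 54.7-fold and 50.9-fold below Sftpc. Itm2a stood at 227 and 248 TPM, and Cnmd, Gkn1, Gkn2, Bricd5 and Tnmd were under TPM 1.

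Sftpb exceeded Psap, the lysosomal saposin precursor (106 and 113 TPM), 13.1-fold and 9.99-fold. Smpd1, acid sphingomyelinase, was at 50.1 and 50.4 TPM, and Psapl1 and Aoah were under TPM 1. Napsa led the aspartic proteases by the smallest margin, 1.76-fold and 1.79-fold over Ctsd (429 and 419 TPM), the general lysosomal cathepsin D. Pgc, pepsinogen C, another protease that cuts the SP-B precursor, was at 22.4 and 20.0 TPM, and Ctse and Pga5 were under TPM 1.

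Ctsh exceeded Ctsc, dipeptidyl peptidase I (265 and 324 TPM), 8.22-fold and 6.07-fold, followed by Ctsl at 196 and 191 TPM. Abca3 exceeded Abca5 (7.10 and 7.88 TPM) 7.99-fold and 7.74-fold, and Abca8a was at 6.86 and 7.92 TPM. Of the 15 other ABCA genes, 7 were under TPM 1 in both pups, among them Abca17, whose near end is 882 bases from Abca3 on the opposite strand. Lpcat1 exceeded Lpcat3 (59.1 and 65.4 TPM), a housekeeping acyltransferase, 5.45-fold and 5.57-fold, followed by Mboat7 at 34.3 and 37.1 TPM, and Lpcat2b was under TPM 1.

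Lamp3 was below the ubiquitous lysosomal proteins Lamp1 (452 and 443 TPM) and Lamp2 (220 and 214 TPM). It was above Cd68 (38.9 and 37.6 TPM), a macrophage member of the family, and Lamp5 was under TPM 1. In TPM Lamp3 was 0.282 times Lamp1 in pup 1 and 0.377 times in pup 3.

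**Figure D2:**
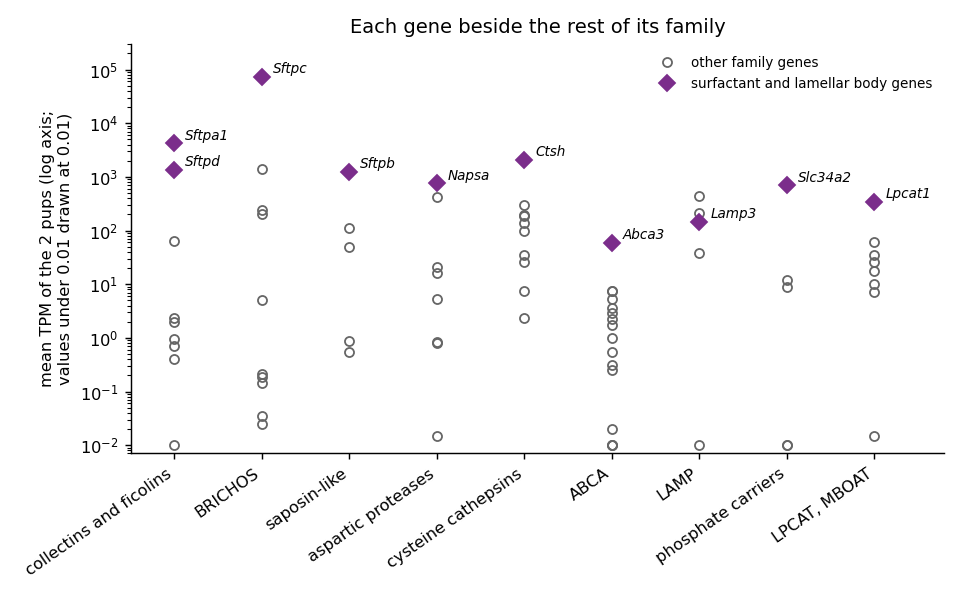
Mean TPM of the 2 pups on a log axis for the 9 families that hold the genes; diamonds are the surfactant and lamellar body genes and open circles the rest of each family. The diamond is the top point of its column except for Lamp3, which lies under Lamp1 and Lamp2, and Sftpd, which lies under Sftpa1.

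The transcript tables split each gene's TPM among its annotated transcripts. Sftpc, Sftpd and Lamp3 have 1 transcript each in the tables. The 7 others have several, and in 7 of 7 the same transcript led in both pups, as it did in 92.4% of 9443 protein-coding genes with at least 2 transcripts and TPM 1 in both pups. Of the 10 genes, 3 list a transcript that the annotation marks as a target of nonsense-mediated decay, the pathway that destroys messages with an early stop codon, and in 2 of these 3, Sftpb and Ctsh, such a model led in both pups. That was so for 7.54% of the 2481 comparable genes that list a decay model, and for 7.71% of the 545 among them at TPM 50 or more.

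For Sftpb, the decay model Sftpb-202 made up 62.4% of the gene's TPM in pup 1 and 63.4% in pup 3, the coding model Sftpb-204 25.3% and 25.5%, and the decay model Sftpb-205 10.5% and 8.82%. The largest difference between Sftpb-202 and Sftpb-204 is at exon 7, which begins 70 bases earlier in Sftpb-202 (chromosome 6, 72309756 to 72309825). This stretch lies in the part of the precursor that becomes mature SP-B. The models are shown across it because their class turns on these bases. The lines give the last 20 bases of exon 6, the extension in capitals where present, and the next 11 bases, on the plus strand, from the GENCODE M21 transcripts (GRCm38).
Sftpb-202: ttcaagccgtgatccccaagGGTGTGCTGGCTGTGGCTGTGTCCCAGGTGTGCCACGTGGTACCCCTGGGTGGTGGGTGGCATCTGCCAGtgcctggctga
Sftpb-201: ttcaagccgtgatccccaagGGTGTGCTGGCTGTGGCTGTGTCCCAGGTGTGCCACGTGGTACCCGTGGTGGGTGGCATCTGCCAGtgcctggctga
Sftpb-204: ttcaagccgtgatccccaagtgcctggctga

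The extension holds 70 bases, 1 more than a multiple of 3, and Sftpb-202 is annotated to stop at the tga that ends its line, after 241 codons. Sftpb-201 is a second coding model, of 376 codons, and crosses the same extension with a gap of 4 bases (72309801 to 72309804) that leaves 66 bases, or 22 codons, in frame. Sftpb-204 skips the extension and has 354 codons. Sftpb-201 held 0.14% of Sftpb in pup 1 and 0% in pup 3. Whether reads over the extension could be assigned to a model with that gap was not tested. Its low share is therefore no measure of how much message with the extension is coding. Models with the full 70 bases held 72.9% and 72.2% of the gene's TPM and models with the short exon 7 held 27.0% and 27.8%. The decay label thus rests on the reading frame of the assembly's bases over this stretch. The tables hold no read sequence, and whether the RNA in these lungs carries that frame was not tested.

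Sftpb-202 and Sftpb-204 share 1476 bases and also differ by 3 bases at the start of the last exon and by 10 and 4 bases at their ends. Which of these differences assigned the reads was not tested. By share of counts in place of TPM, Sftpb-202 held 65.3% and 66.1%.

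For Ctsh, the decay model Ctsh-202 made up 55.1% of the gene's TPM in pup 1 and 54.4% in pup 3. Coding models together made up 42.0% and 43.1% and retained-intron models 2.86% and 2.46%. The coding part was divided mainly among Ctsh-204, a short model of 631 bases, 22.4% and 24.8%, Ctsh-208 12.8% and 11.3%, and Ctsh-201, of 1617 bases and 333 codons, 6.57% and 6.93%. Ctsh-202 lacks exon 3 of Ctsh-201 (106 bases, chromosome 9, 90061519 to 90061624), 271 bases at the start and 2 at the end. Joined without exon 3, the message meets a tga after 41 codons. The lines show the last 20 bases of exon 2, exon 3 in capitals, and the next 9 bases.
Ctsh-201: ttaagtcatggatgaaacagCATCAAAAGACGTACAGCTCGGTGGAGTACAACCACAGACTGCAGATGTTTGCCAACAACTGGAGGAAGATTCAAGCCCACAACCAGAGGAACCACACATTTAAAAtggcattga
Ctsh-202: ttaagtcatggatgaaacagtggcattga

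Models with exon 3 held 41.9% of Ctsh TPM in pup 1 and 43.1% in pup 3, and 33.2% and 33.9% of its counts. Whether exon 3 or the differences at the ends of the models assigned the reads was not tested. The shares were alike in the pups, and both measures place Ctsh-202 first, at 64.9% and 64.4% of counts. Short models count for more in TPM than in counts, as Ctsh-204 shows with 12.3% and 13.7% of counts.

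**Figure D3:**
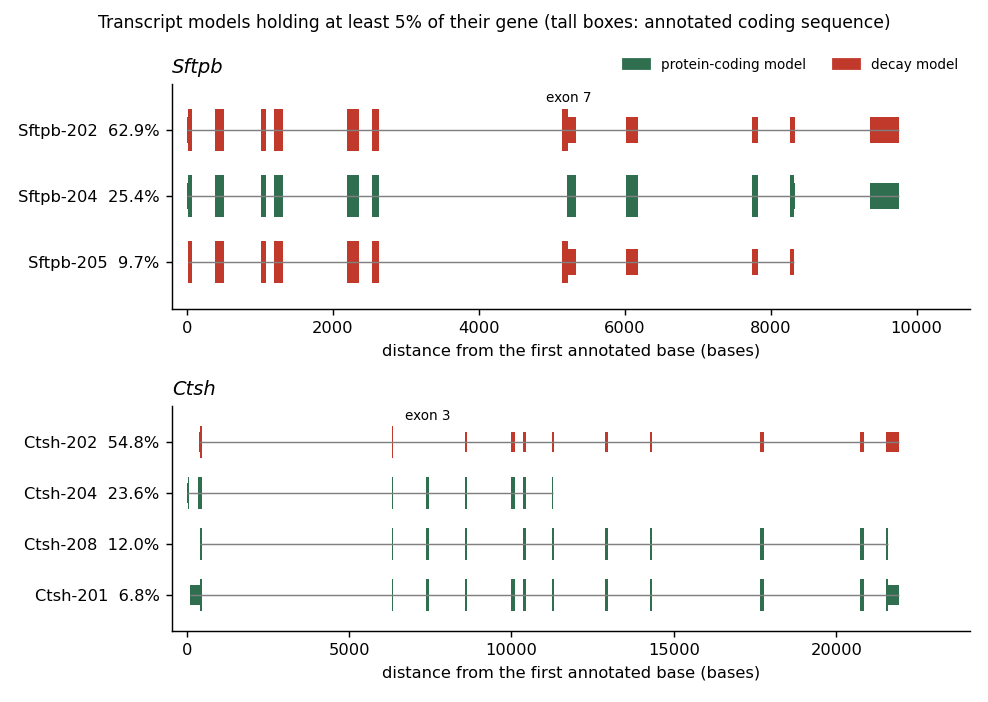
Annotated transcripts of Sftpb and Ctsh with a mean share of at least 5%, drawn to scale from the first annotated base of each gene; boxes are exons, tall boxes the annotated coding sequence, green coding models and red decay models, with the mean share of the gene's TPM beside each name. In Sftpb-202 and Sftpb-205 the coding sequence ends in exon 7, and in Ctsh-202 it ends soon after the place of the missing exon 3.

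Lpcat1 was mostly its full coding transcript. Lpcat1-201 held 83.0% in pup 1 and 84.5% in pup 3, and the retained-intron model Lpcat1-205 7.59% and 10.3%. The decay model Lpcat1-202 held 8.41% and 4.32%, a 1.95-fold difference between the pups. That was the only 1 of 15 transcripts of these genes with a mean share of at least 4% and 1000 counts whose share differed at least 1.5-fold, against 2.77% of 8530 such transcripts over all genes, and 1.5-fold was chosen after the values were seen. Lpcat1-202 differs from Lpcat1-201 by the absence of exon 2 alone (143 bases, chromosome 13, 73484261 to 73484403) and stops after 77 codons in place of 534. The lines show the last 20 bases of exon 1, exon 2 in capitals and the start of exon 3, which for Lpcat1-202 runs to its stop codon.
Lpcat1-201: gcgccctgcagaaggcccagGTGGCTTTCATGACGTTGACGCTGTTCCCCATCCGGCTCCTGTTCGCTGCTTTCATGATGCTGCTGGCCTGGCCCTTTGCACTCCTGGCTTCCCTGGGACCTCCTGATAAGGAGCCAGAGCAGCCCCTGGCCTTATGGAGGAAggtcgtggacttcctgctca
Lpcat1-202: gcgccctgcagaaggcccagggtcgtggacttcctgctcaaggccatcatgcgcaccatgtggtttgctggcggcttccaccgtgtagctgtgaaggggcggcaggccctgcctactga

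The other genes with several transcripts were led by a coding model. Napsa-201 held 99.6% and 99.5% of Napsa, Slc34a2-201 97.8% and 97.4% of Slc34a2, and Abca3-201 84.2% and 83.3% of Abca3, where retained-intron models held 10.2% and 8.72%. Sftpa1 split between Sftpa1-201, of 851 bases, at 79.1% and 79.6% and Sftpa1-202, of 2854 bases, at 20.9% and 20.4%. By counts those 2 models were near equal, with Sftpa1-201 at 50.8% and 51.6%, because TPM divides by length.

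When only coding models were counted, an alternative chosen after the shares were seen, the order of the genes changed. Sftpb fell from place 5 to place 7, at 353 and 289 TPM, and its range then overlapped that of Lpcat1 (267 and 308 TPM). Ctsh, at 914 and 848 TPM, moved below Sftpd. Coding models held 25.5% of Sftpb and 42.6% of Ctsh as means of the pups, while the median over the 9443 genes was 93.5%, and 10% of those genes were under 48.1%. Because of what the Sftpb extension shows, this order depends on the annotation's labels.

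**Figure D4:**
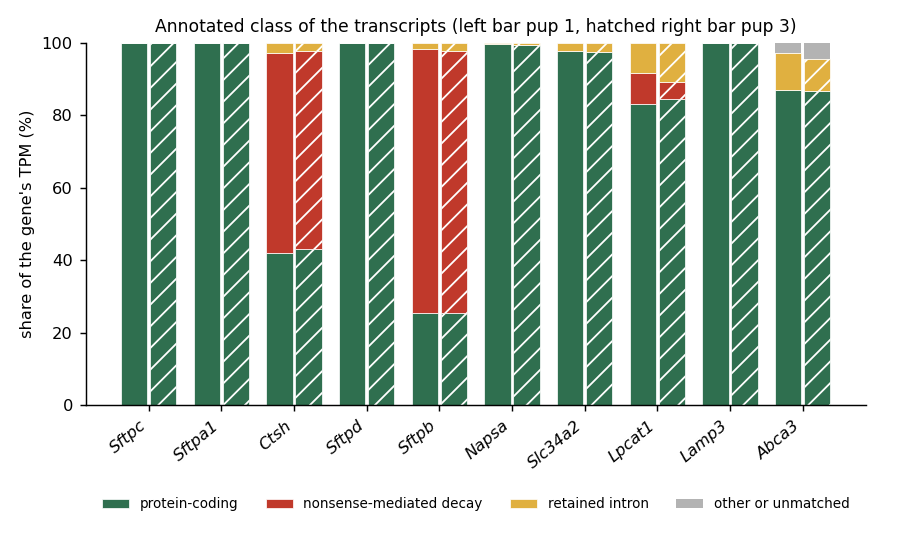
Share of each gene's TPM held by transcripts of each annotated class, pup 1 plain and pup 3 hatched. Red decay models fill 72.5% of Sftpb, 54.8% of Ctsh and 6.54% of Lpcat1 as means, with the Lpcat1 decay models at 8.56% in pup 1 and 4.52% in pup 3.

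The pups were compared by counts scaled with TMM, which sets aside the difference in depth. This sets 1 library against 1 library, so the 95% intervals hold counting error only, and what separates pup from library preparation was not tested. None of the 10 genes passed the size rule (at least 2-fold, at least 50 counts, interval without 1): 0 of 10, against 1.40% of 15790 genes tested, 0.659% higher in pup 1 and 0.741% higher in pup 3. Of those calls over all genes, 47.1% were higher in pup 1, and 66.3% were with spike-in scaling, which moves every log2 ratio up by 0.14.

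The largest difference toward pup 1 was in Sftpb, at 1.29-fold (95% interval 1.28 to 1.31). Sftpd was 1.19-fold (1.18 to 1.21), Sftpc 1.19-fold (1.19 to 1.19) and Ctsh 1.18-fold (1.17 to 1.19) higher in pup 1. Sftpa1 and Napsa followed at 1.09-fold and 1.07-fold. All 6 stayed higher in pup 1 with every other scaling and with deposited TPM, though Napsa was then close to equal (log2 ratio 0.01).

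Lamp3 went the other way, with pup 1 at 0.811 times pup 3 (0.792 to 0.830), and it stayed lower in pup 1 under the 5 other measures, from -0.39 to -0.16 on the log2 scale. Slc34a2 (1.02, 1.01 to 1.03), Abca3 (0.997, 0.970 to 1.03) and Lpcat1 (0.958, 0.944 to 0.973) were near 1, and each changed direction under at least 1 of those 5 measures. Deposited posterior intervals of TPM overlapped between the pups for 2 genes, Napsa and Abca3.

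Against 3501 genes with at least 5000 counts, whose central 68% of log2 ratios ran from -0.13 to 0.18, 4 of the 10 (Sftpb, Sftpd, Sftpc and Ctsh) lay above the range and 1 (Lamp3) below it. By construction 16.0% of those genes lie above and 16.0% below. A larger absolute log2 ratio than that of Sftpb was found for 3.88% of them, and larger than that of Lamp3 for 7.14%. In all, 7 of the 10 were higher in pup 1, with a median log2 ratio of 0.11, against 51.0% of all genes tested and a median of 0.01. Over the 3501 genes with at least 5000 counts the median was 0.04. Under the other measures 6 to 9 of the 10 were higher in pup 1.

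Summed TPM of the 20 other type 2 markers was 1.16 times as high in pup 1 as in pup 3, and 1.01 times without Lyz1 and Lyz2, a value taken after theirs were seen. The ratio was 0.835 for red cell markers, 0.920 for dendritic, 0.932 for type 1, 0.951 for club cell and 0.977 for endothelial markers. It was 1.00 for ciliated cell, 1.04 for macrophage and 1.04 for fibroblast markers. The same ratio of summed TPM was 1.11 for the 10 genes and 1.06 for the 9 without Sftpc. Ratios of TPM are not on the scale of the TMM-scaled ratios above. The median log2 ratio of the 10 genes was 0.020 with TPM + 1 and 0.11 with TMM. Within the type 2 markers Lyz1 and Lyz2, lysozyme genes with near-identical sequence whose split is uncertain, stood at 2874 and 1914 TPM and at 3232 and 2664 TPM in pups 1 and 3. S100g, a calcium-binding protein gene, stood at 1079 and 1042 TPM. Of the 20, 13 were higher in pup 1 by TMM-scaled counts and 7 in pup 3. Their median log2 ratio was 0.14, against 0.11 for the 10 genes. Of the 8 dendritic markers tested, 5 were higher in pup 1 by TMM-scaled counts and 3 in pup 3. Fscn1, at 60.8 and 71.8 TPM, made up most of the summed dendritic TPM behind the ratio of 0.920. The part of cell makeup in the ratios of the 10 genes was not tested.

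**Figure D5:**
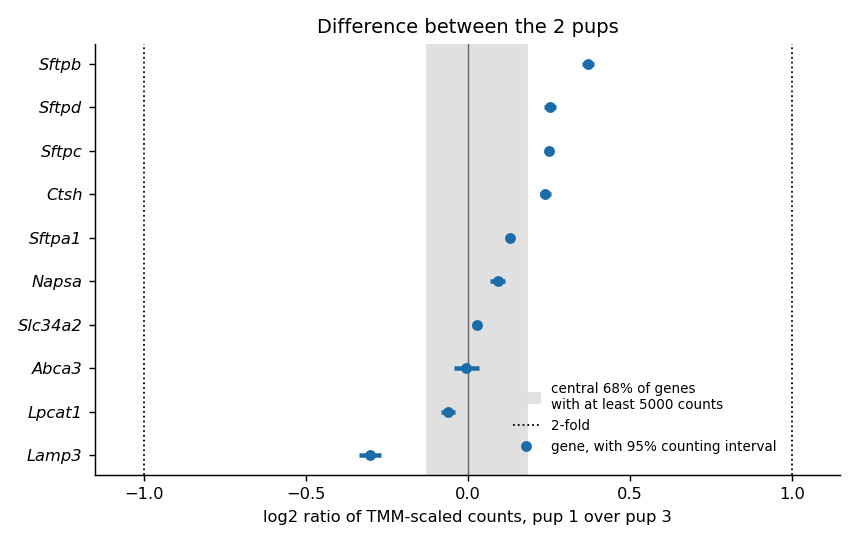
Log2 ratio of TMM-scaled counts, pup 1 over pup 3, with 95% counting intervals; the grey band is the central 68% of 3501 genes with at least 5000 counts and dotted lines mark 2-fold. Sftpb, Sftpd, Sftpc and Ctsh lie right of the band and Lamp3 left of it, and Slc34a2, Abca3 and Lpcat1, near 0, change sign with the scaling or measure.

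The wider surfactant pathway was taken from lists of genes by function, and nearly all of their members were detected, against 60.3% of protein-coding genes and 89.1% of genes tested. Of 35 genes for the synthesis of phosphatidylcholine and phosphatidylglycerol, 34 were detected in both pups and Pcyt1b was not (0.25 and 0.38 TPM). Prdx6, whose phospholipase activity acts in surfactant turnover, was highest at 1083 and 1044 TPM, then Fabp5, a fatty acid carrier, at 569 and 435 TPM and Elovl1, a fatty acid elongase, at 308 and 314 TPM. By the size rule 0 were higher in pup 1 and 1 in pup 3: Scd1, stearoyl-CoA desaturase, at 36.6 and 82.2 TPM (0.472 times, 0.457 to 0.488). The list's median log2 ratio was 0.05.

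All 30 genes for lamellar body formation were detected, with none past the size rule and a median log2 ratio of 0.00. Cd63, a tetraspanin of lysosome-related organelles, led at 808 and 808 TPM, then Npc2, a cholesterol carrier, at 464 and 496 TPM and Dram1, a lysosomal membrane protein gene, at 226 and 205 TPM. Lamp3 and Abca3 were both lower than those 3. All 22 exocytosis genes were detected as well, with none past the rule and a median of 0.08. Anxa2, an annexin that acts in membrane fusion, stood at 1006 and 968 TPM, the vesicle SNARE gene Vamp8 at 577 and 538 TPM, and S100a10, the partner of annexin A2, at 394 and 350 TPM.

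All 25 genes for folding and sorting of the precursors were detected, with none past the rule and a median of -0.04. The chaperone genes Hspa5 (325 and 460 TPM), Pdia3 (324 and 363 TPM) and Calr (278 and 356 TPM) led and were each higher in pup 3 by TPM. All 25 regulators were detected too, with none past the rule and a median of 0.02. Fgfr2, a growth factor receptor, stood at 108 and 98.6 TPM, and the transcription factor genes Cebpb and Cebpd at 94.9 and 108 TPM and at 101 ± 1.05 TPM as a mean.

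Of 17 genes of surfactant clearance and macrophage uptake, 16 were detected, and Csf2rb2 was at 0.76 and 0.87 TPM. Cd36, a scavenger receptor, led at 313 and 300 TPM, then Lrp1, an endocytic receptor, at 63.9 ± 2.79 TPM, and Cd14 came next. By the size rule 0 were higher in pup 1 and 1 in pup 3, and that was Cd14, a co-receptor for lipopolysaccharide that SP-A binds, at 29.3 and 89.4 TPM (0.348 times, 0.327 to 0.370). Among the families, Ren1, a renin gene, passed the rule toward pup 1 at 54 and 22 counts, 2.22-fold (1.33 to 3.82). The median log2 ratio of the clearance list was -0.04. The 11 macrophage markers summed to 207 and 200 TPM, less than Cd36 alone, and which cells expressed Cd36 was not tested.

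Promoter sequence was at hand for 6 of the 10 (Abca3, Lamp3, Lpcat1, Sftpa1, Sftpb and Slc34a2), as the 250 bases before the RefSeq start on GRCm38.p6. Searches were made for CTCAAG on either strand, a core of sites that NKX2-1, the lung lineage factor, is known to bind, and for TATAA on the gene's strand between 40 and 20 bases before the start. These motifs do not overlap. The 2 promoters with a match are printed, with the matches in capitals.
Sftpb: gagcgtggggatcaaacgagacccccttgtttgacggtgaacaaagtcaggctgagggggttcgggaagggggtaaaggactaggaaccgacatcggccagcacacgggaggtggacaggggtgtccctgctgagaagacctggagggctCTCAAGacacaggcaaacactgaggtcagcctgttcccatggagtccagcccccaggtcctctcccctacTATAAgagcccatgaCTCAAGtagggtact
Sftpa1: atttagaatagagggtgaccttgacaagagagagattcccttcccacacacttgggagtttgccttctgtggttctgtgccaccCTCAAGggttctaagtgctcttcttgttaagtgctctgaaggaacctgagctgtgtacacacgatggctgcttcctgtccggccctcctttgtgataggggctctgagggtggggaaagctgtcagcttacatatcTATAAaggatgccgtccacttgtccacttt

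The Sftpb window (chr6:72304360-72304609, plus strand) holds CTCAAG at 100 and 15 bases before the start and TATAA at 30. The Sftpa1 window (chr14:41131538-41131787, plus strand) holds CTCAAG at 166 and TATAA at 30. Of 32851 windows of this length, 13.3% hold CTCAAG, 0.998% hold it at least 2 times and 3.52% hold TATAA in that position. The other 4 windows hold neither exact string. The Slc34a2 window does hold tatatata within the stretch searched for TATAA. The exact search does not match those letters, so they are in no count given here. Whether they act as a TATA element was not tested. GC content was 67.6% for Abca3, 69.6% for Slc34a2 and 60.8% for Lpcat1, against 58.4% for Sftpb, 50% for Sftpa1 and 42.4% for Lamp3, with a median of 52.4% over all windows. A match is a description of letters and not a measured site.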

How the data were processed

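Total RNA longer than 200 nt from the lungs of 2 pups was sequenced from 10 ng of input, per the labels. The deposited tables give expected counts per gene and transcript (estimated counts that need not be whole), TPM (counts divided by effective length and scaled to a fixed total) and isoform percent, the share of a gene's TPM held by a transcript, per the file headers. Assembly mm10 and annotation M4 are named in the deposited text files. Neither aligner, counting program nor use of strand is stated: they are not given in the sources used. The deposited posterior means and posterior intervals were used as checks only. Deposited effective lengths and posterior SDs entered no result.

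Names, classes and coordinates came from GENCODE M21, which held 42462 of 43346 gene identifiers and 40 of 41 transcripts of the 10 genes, 34 of them at the same length. Classes are those of M21. Rounded expected counts were compared after TMM scaling in edgeR 4.0.16 under R 4.3.3, with DESeq2 1.42.0 size factors, total counts and spike-ins (317 and 316 counts) as alternatives. Ratio intervals are exact conditional binomial at 95% (scipy 1.17.1) and cover counting error only, and the sources mention no molecular identifiers that would tell repeated reads of a molecule apart. Log2 ratios carry a prior count of 0.5. A count of 0 allows 3 counts, 0.0711 CPM in pup 1 and 0.0810 CPM in pup 3.

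The genes and lists were chosen with earlier results of these data known. Named beside the 10 genes are the 3 highest of each family or pathway list, members under TPM 1 in both pups where 5 or fewer, members past the size rule, and transcripts with a mean share of at least 10%. Lower transcripts, markers and neighbouring genes named beyond that rule were chosen after their values were seen.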

Additional observations from a re-analysis of the deposited data

How the results depend on the processing

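No paired analysis was possible because the 2 libraries form 1 group. The summed level of the 10 genes, 84073 TPM as a mean, was 97310 TPM when TPM was rescaled to protein-coding genes outside the mitochondrial genome, and 79604 and 88543 TPM in either pup alone. All 10 kept their place in the order with posterior mean TPM and in each pup alone. 5 of 10 kept it by counts with no length scaling, and 5 with coding models only, the last chosen after seeing the data. The median log2 ratio of the 10, 0.11, was 0.25 with spike-in scaling and 0.020 with deposited TPM + 1. Without a count minimum 701 genes passed the size rule and at 1.5-fold 799 did, against 221, and in each case 0 of the 10 did. A decay model led 2 genes under every alternative run, each pup alone included (2 and 2). Signs turned for Abca3 with DESeq2 and spike-in scaling, for Slc34a2 with total counts and TPM + 1, and for Lpcat1 with spike-in scaling. The spike-ins had few counts, which limits that scaling. With 2 pups no spread between litters or conditions can be given.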
